A study of Homo sapiens with 8 samples.

Results

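Untreated, parental MIA PaCa-2 cells were compared with untreated, parental Capan-1 cells, both of them human lines of pancreatic ductal adenocarcinoma. The comparison rests on 4 of the 8 arrays of the series, with 2 arrays for each line, and the other 4 arrays hold cells given an siRNA against HOXB7. MIA PaCa-2 is an established line derived from a primary pancreatic tumor and was kept in RPMI 1640 medium with 10% fetal bovine serum and antibiotics. Capan-1 is an established line from a liver metastasis and was grown in IMDM medium with 20% fetal bovine serum. Both parental groups carry the treatment label control, and no transfection is recorded for them. Each line was hybridized on a slide of its own, so the line, its culture medium and serum and its slide cannot be told apart. Each line stands for itself and not for primary or metastatic tumors in general. The labels do not say whether the 2 arrays of a line came from separate cultures, so every p-value measures only the spread between these arrays, which may be technical.

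Pancreatic ductal adenocarcinoma arises from exocrine cells of the pancreas, and its tumors range from gland-forming, mucin-producing carcinomas to poorly differentiated ones. Epithelial cells are held together by adherens, tight and desmosomal junctions, and in an epithelial to mesenchymal transition these junctions are lost while vimentin and other cytoskeletal and matrix genes are expressed. ZEB1, SNAI1 and SNAI2 are transcription factors that bind E-box motifs and repress epithelial genes such as CDH1. Inactivation of CDKN2A and SMAD4 is frequent in this tumor.

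Levels are given as the log2 intensity of a probe relative to the 75th percentile of its array, so a level of 0 is the 75th percentile and no level of a gene is compared with that of another gene. Differences are MIA PaCa-2 minus Capan-1, so a negative difference means a higher level in Capan-1. Of 34127 probes, 67.5% to 73.0% were well above background on the 4 parental arrays, and no spot was saturated. In all, 24964 probes could be tested, some of them without a gene name, and the named ones covered 16238 genes. Replicate arrays correlated with r = 0.993 in MIA PaCa-2 and r = 0.995 in Capan-1 across probes, whereas arrays of different lines correlated with r between 0.806 and 0.812.

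Most genes differed between the lines. By limma with a Benjamini-Hochberg adjusted p under 0.05, 6444 genes (39.7%) were higher in MIA PaCa-2 and 5342 genes (32.9%) were higher in Capan-1, so that 72.6% of all genes tested were called. A stricter rule is therefore used for all counts below. It tests with limma whether a difference exceeds 2-fold, and it called 2395 genes (14.7%) higher in MIA PaCa-2 against 2378 genes (14.6%) higher in Capan-1, or 29.4% in all. Among the 13970 genes well above background on all 4 arrays, 12.9% passed this 2-fold test as higher in MIA PaCa-2 and 10.7% as higher in Capan-1, 23.6% in all, and their median difference was 0.11. These shares are the background for every gene list below, whose counts and medians refer to members well above background on all 4 arrays. Membership and median go by the brightest probe of a gene, while a call can come from any of its probes tested. Such a probe can be above background in only 1 line, so these shares and counts may include calls of that kind. A further 636 of 20356 named genes (3.12%) were well above background on both arrays of MIA PaCa-2 and neither array of Capan-1, and 800 genes (3.93%) the reverse. Such genes had to differ, so their fold change is given only as a lower bound against the weakest signal called well above background. This bound holds for the main processing only. Another background correction, normexp with an offset of 50 intensity units, gave smaller differences for dim genes. It moved 107 of 210 named genes by more than 1.5 times, and all 210 kept their sign. Over the alternative ways of processing, differences could fall short of their bound. MMP7 reached a log2 difference of -9.01 against a bound of -12.73, and TP63 reached 0.63 against 2.75. List medians that it moved as far are given with both values.

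Markers of the cell type were examined first. Of 9 markers of ductal epithelium, 6 were well above background in both lines and 3 (CDH1, EPCAM and CFTR) only in Capan-1, and their summed linear level was 337 and 368 on the MIA PaCa-2 arrays and 1239 and 1170 on the Capan-1 arrays. The keratin pair of simple epithelia, KRT8 and KRT18, was expressed in both lines. KRT18 had levels of 7.50 and 7.67 in MIA PaCa-2 and of 7.82 and 7.77 in Capan-1, a difference of -0.21 ± 0.11 (SE, n = 2 arrays per line) that did not pass the limma test (adjusted p = 0.156), while its other probe gave -0.53 (adjusted p = 0.0111 by limma, not past the 2-fold test). KRT8 was at 4.82 and 5.10 in MIA PaCa-2 and at 5.82 and 5.90 in Capan-1, a difference of -0.90 that did not pass the 2-fold test. MIA PaCa-2 thus carried keratins of simple epithelia with neither CDH1 nor EPCAM above background. Below, a gene said to be in neither line did not pass the background call on both arrays of either line, which held for 4118 of 20356 named genes. Markers of other cell types were in part above background. Of 8 endothelial markers, 3 were in both lines, 1 (EMCN) in MIA PaCa-2 only and 4, with PECAM1 and KDR, in neither line. Of 9 leukocyte markers, 8 were in both lines, with PTPRC at a mean level of -1.94 in MIA PaCa-2 against -3.69 in Capan-1, and CD163 was in neither line. Of 8 islet markers 5 were in both lines and 3 in neither, and of 10 hepatocyte markers 3 were in both lines and 7, with ALB, in neither. Both groups were cultures of a cell line, so such a marker does not show that cells of that type were present. Why these markers were above background was not tested. In such bulk RNA, fewer cells with a gene and less of its RNA per cell cannot be told apart. The summed level of 10 fibroblast and stellate cell markers was 14.6 and 15.2 in MIA PaCa-2 against 0.279 and 0.275 in Capan-1, with 5 of the 10 (FAP, LUM, PDGFRA, PDGFRB and THY1) in neither line, and that of the leukocyte markers was 5.28 and 5.01 against 1.74 and 1.84. Of 8 acinar markers 3 were in both lines, 1 in Capan-1 only and 4 in neither, and their sum was 0.585 and 0.588 in MIA PaCa-2 and 7.87 and 7.56 in Capan-1, where PRSS1, a trypsinogen gene with near-identical copies in the genome, was at 2.89 and 2.83.

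HOXB7, the homeobox gene that the study silenced, was well above background on all 4 arrays. Its probe lies on chromosome 17 at positions 44039988 to 44040047 of hg18. The level was -4.82 and -4.10 in MIA PaCa-2 and -2.48 and -2.34 in Capan-1, and the arrays of the lines did not overlap. The difference was -2.05 ± 0.27 (SE), or 4.13-fold higher in Capan-1, with a limma adjusted p of 0.00354 and a p of 0.0353 in the 2-fold test. With normexp the difference was -0.69, and the gene is measured by 1 probe on 1 spot.

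The largest differences ran in both directions. Among genes well above background on all 4 arrays, the 8 most in favor of MIA PaCa-2 were VIM, the intermediate filament of mesenchymal cells (9.0), the fibrillar collagen gene COL5A2 (8.58), the receptor phosphatase gene PTPRS (8.37), PALM (8.30), the secreted serpin gene SERPINF1 (7.93), TM4SF18 (7.86), the proteoglycan gene SRGN (7.84) and the nuclear receptor gene NR2F1 (7.73). Among the 8 most in favor of Capan-1 were LCN2, an iron-siderophore carrier (-10.68), the secretory pathway disulfide isomerase gene AGR2 (-10.67), the trefoil peptide genes TFF3 (-9.82) and TFF2 (-9.10), the acute phase gene SAA1 (-9.74), LY6K (-9.46) and DMKN (-9.25). Standard errors of these differences lay between 0.09 and 0.24.

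Other genes were detected in a single line. Only MIA PaCa-2 had the G protein signaling regulator RGS5 (at least 1308-fold), the protease-activated receptor gene F2RL2 (at least 460-fold), the lymphangiogenic factor VEGFC (at least 406-fold), RNF182 (at least 289-fold), ZSCAN18 (at least 288-fold) and RAB34 (at least 277-fold). Only Capan-1 had MMP7, or matrilysin (at least 6773-fold), EPCAM, an adhesion molecule of epithelial cells (at least 3854-fold), the apical transport gene MAL2 (at least 3249-fold), PIGR, which carries polymeric immunoglobulin across epithelia (at least 3245-fold), CEACAM6 (at least 1670-fold) and ADGRF1 (at least 1658-fold). The bounds in Capan-1 thus reached higher than those in MIA PaCa-2.

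Epithelial junction genes were higher in Capan-1. Of 36 members on the array, 27 were above background on all 4 arrays, and 22 of these passed the 2-fold test as higher in Capan-1 and 0 as higher in MIA PaCa-2, with a median difference of -2.61. A further 5 were detected in Capan-1 only, against 0 in MIA PaCa-2 only. CDH1, which encodes E-cadherin, was at -8.13 and -7.46 in MIA PaCa-2, not above background on either array, and at 3.77 and 3.73 in Capan-1, at least 861-fold higher. EPCAM was at -8.19 and -7.55 in MIA PaCa-2 and at 5.96 and 5.86 in Capan-1. The claudin gene CLDN3 was at -5.25 and -6.05 in MIA PaCa-2, where only part of the arrays had it above background, and at 4.71 and 4.72 in Capan-1. Tight junction genes measured in both lines followed, such as CLDN7 (-6.22), CGN (-6.06) and the polarity gene CRB3 (-6.25). Members that did not pass the 2-fold test include the plakophilin gene PKP3, at 3.80 and 3.79 in MIA PaCa-2 and 4.05 and 3.99 in Capan-1, and CTNND1 (-0.87), which encodes p120 catenin.

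Regulators of epithelial identity were mostly higher in Capan-1 too. Of 16 members above background on all 4 arrays, 12 were higher in Capan-1 and 0 in MIA PaCa-2 by the 2-fold test, with a median of -3.30 (-1.97 with normexp). The splicing regulators ESRP1 (-4.12) and ESRP2 (-4.32), the transcription factors OVOL2 (-3.89) and ELF3 (-3.50), the membrane protease genes PRSS8 (-7.41) and ST14 (-5.05) and the clathrin adaptor gene AP1M2 (-5.39) were among them. A further 6 were detected in Capan-1 only, including the small GTPase gene RAB25 (at least 464-fold), the protease inhibitor gene SPINT1 (at least 566-fold), the ZEB1-opposing factor OVOL1 (at least 121-fold) and the lipid enzyme gene CDS1 (at least 54.3-fold). TP63, a factor of basal and squamous epithelia, ran the other way, at -3.03 and -3.29 in MIA PaCa-2 and not above background in Capan-1 (at least 6.73-fold). The probes of GRHL2 disagreed, with a difference of 1.85 for the brightest and -6.52 for the other.

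The promoters of these genes were searched for E-box motifs, since ZEB1 and SNAI factors bind CACCTG and its reverse complement CAGGTG. In the 250 bases before the start of each gene (RefSeq, GRCh38.p14), 17.5% of 27305 promoters hold a match on either strand and 2.55% hold 2 or more. The motif was found in 8 of 23 junction genes and 7 of 14 epithelial regulators with a promoter in the table, where CDH1 and EPCAM have none. These matches are a description of letters and not of binding. The promoters of CRB3 and AP1M2, which hold the most matches of both lists, are shown with that of RAB25, a gene detected in Capan-1 only, each 5′ to 3′ on the strand of the gene, with the motif in capitals.

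CRB3, chr19:6464021-6464270, plus strand: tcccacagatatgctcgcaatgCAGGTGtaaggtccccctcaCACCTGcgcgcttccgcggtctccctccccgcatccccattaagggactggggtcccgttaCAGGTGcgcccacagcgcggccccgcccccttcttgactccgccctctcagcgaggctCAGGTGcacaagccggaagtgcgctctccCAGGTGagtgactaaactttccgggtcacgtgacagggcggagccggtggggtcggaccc
AP1M2, chr19:10587313-10587562, minus strand: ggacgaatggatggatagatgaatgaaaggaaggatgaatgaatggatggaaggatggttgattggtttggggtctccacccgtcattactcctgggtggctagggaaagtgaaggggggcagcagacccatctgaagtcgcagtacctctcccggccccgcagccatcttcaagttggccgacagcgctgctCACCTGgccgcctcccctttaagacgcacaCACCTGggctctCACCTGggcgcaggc
RAB25, chr1:156060910-156061159, plus strand: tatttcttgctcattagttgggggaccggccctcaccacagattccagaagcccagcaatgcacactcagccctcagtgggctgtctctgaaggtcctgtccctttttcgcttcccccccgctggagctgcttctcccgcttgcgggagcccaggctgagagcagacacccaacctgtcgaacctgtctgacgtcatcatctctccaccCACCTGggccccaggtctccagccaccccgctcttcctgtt

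The CRB3 promoter holds 5 matches, that of AP1M2 holds 3, within 57 bases of the start, and that of RAB25 holds 1. All 3 genes were higher in Capan-1, as most members of both lists were, so this follows from the choice of genes. The motif was in 6 of 18 junction genes and 6 of 10 regulators past the 2-fold test as higher in Capan-1. In the whole lists it was in 8 of 23 and 7 of 14. Whether the motif goes with the difference was not tested. CRB3 was at -4.98 and -4.76 in MIA PaCa-2 and at 1.45 and 1.31 in Capan-1. AP1M2 was at -3.44 and -3.41 against 1.93 and 1.99, and RAB25 at -7.17 and -7.38, not above background, against 2.85 and 2.87.

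Keratins that passed the 2-fold test were mostly higher in Capan-1. Among 13 members above background on all 4 arrays, 4 were higher in Capan-1 and 1 in MIA PaCa-2 by this test. Their median was -0.68 (-0.42 with normexp). Among all 18 members tested, 9 were higher in Capan-1 and 1 in MIA PaCa-2 by the same test, against 14.6% and 14.7% of all genes tested. This wider set includes 4 members detected in Capan-1 only, whose direction was fixed by the filter. KRT7 (-5.44) and KRT19 (-2.23), keratins of ductal cells, and KRT10 and KRT16 were higher in Capan-1, and KRT15 (1.47) was higher in MIA PaCa-2. KRT23 (at least 1433-fold), KRT14 (at least 52.6-fold), KRT6B (at least 11.2-fold) and KRT6A (at least 2.39-fold) were detected in Capan-1 only.

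Mesenchymal genes were mostly, but not uniformly, higher in MIA PaCa-2. Of 23 members above background on all 4 arrays, 13 were higher in MIA PaCa-2 against 3 in Capan-1 by the 2-fold test, with a median of 1.94 (1.27 with normexp). VIM was at 7.87 and 8.01 in MIA PaCa-2 and at -1.01 and -1.11 in Capan-1. ZEB1 was at 1.27 and 1.07 in MIA PaCa-2 and at -3.71 and -3.76 in Capan-1, a difference of 4.91 ± 0.11 (SE), and SNAI1 (1.66) was also higher in MIA PaCa-2. The contractile and matrix genes TPM2 (7.27), LOXL2 (5.36), CALD1 (3.24), NT5E (3.19) and CD44 (2.42) were higher in MIA PaCa-2 as well. Other mesenchymal genes pointed to Capan-1. CDH2, which encodes N-cadherin, was at -3.38 and -4.14 in MIA PaCa-2 and at 0.78 and 0.61 in Capan-1, a difference of -4.46. CNN3 (-5.79) and SNAI3 (-1.70) were also higher in Capan-1, and the gap junction gene GJA1 (at least 58.3-fold), the E-box factor gene TCF4 (at least 30.7-fold) and FN1, which encodes fibronectin (at least 1.88-fold), were detected in Capan-1 only. TWIST1, PRRX1, CDH11, POSTN and FBN1 were in neither line. The summed fibroblast markers above were higher in MIA PaCa-2 too, with the defining genes PDGFRA, PDGFRB, FAP, LUM and THY1 in neither line. MIA PaCa-2 thus had VIM and ZEB1 without FN1, and Capan-1 had CDH1 together with CDH2.

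**Figure D1:**
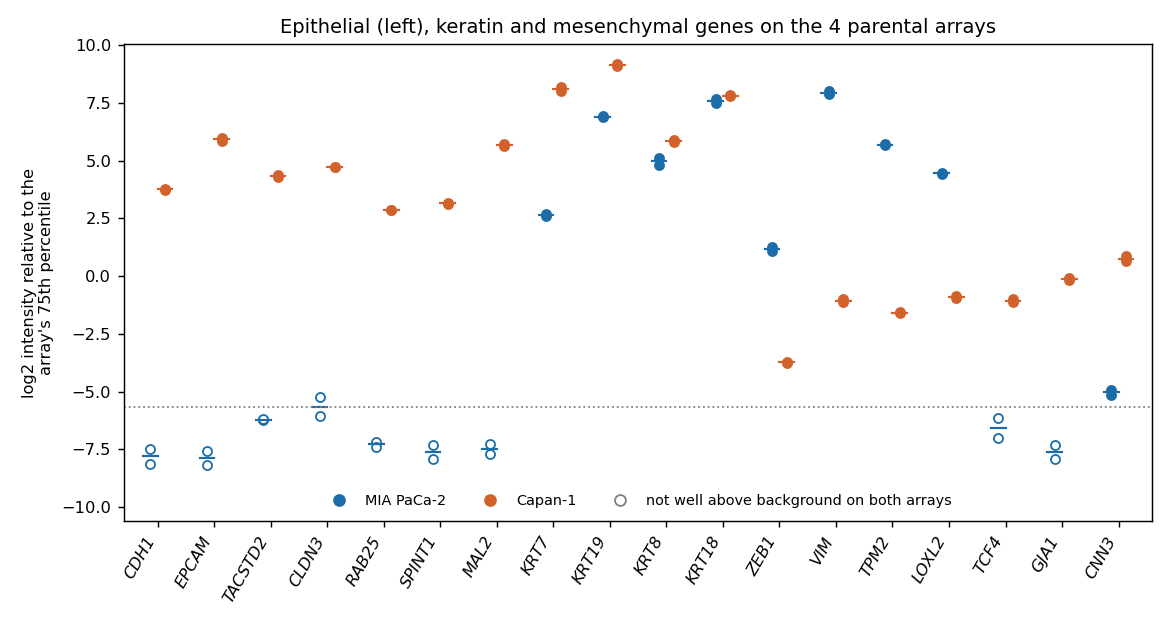
Levels (y axis, log2 intensity relative to the 75th percentile of the array) of 18 epithelial, keratin and mesenchymal genes (x axis) on the 2 MIA PaCa-2 (blue) and 2 Capan-1 (orange) parental arrays. Points are arrays, dashes are means, open points mark a gene that was not well above background on both arrays of a line, and the dotted line is the highest background limit of the 4 arrays. CDH1 and EPCAM are open in MIA PaCa-2, KRT18 differs by -0.21, and VIM, TPM2, LOXL2 and ZEB1 are higher in MIA PaCa-2 while TCF4, GJA1 and CNN3 are higher in Capan-1.

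Secretory products had the lowest median of the 33 lists. Of 20 mucin and secretory genes above background on all 4 arrays, 14 were higher in Capan-1 and 0 in MIA PaCa-2 by the 2-fold test, with a median of -3.97, and 14 further members were detected in Capan-1 only against 0 in MIA PaCa-2 only. The exception was MUC12, with a tested probe at -3.91 and -3.88 in MIA PaCa-2 and not above background in Capan-1 (at least 4.05-fold higher in MIA PaCa-2). LCN2 was at -4.05 and -4.68 in MIA PaCa-2 and at 6.31 and 6.32 in Capan-1, and AGR2 was at -4.44 and -4.60 against 6.15 and 6.14. The trefoil genes TFF1 (-5.42), TFF2 (-9.10) and TFF3 (-9.82), which encode peptides secreted with mucus, all followed. SPINK1, a trypsin inhibitor, was at -7.17 and -4.46 in MIA PaCa-2, above background on part of the arrays, and at 6.34 and 6.23 in Capan-1. Among mucins, MUC1 (-2.52) and MUC4 (-1.85) were higher in Capan-1, as was MUC5AC through 1 of its probes (-3.01, against -1.33 for the brightest, which did not pass the 2-fold test). MUC13 (at least 44.7-fold) and MUC20 (at least 75.6-fold) were detected only there. MUC16 did not pass the test (-0.09 and 1.39 with its probes). MUC2 gave 0.74, -0.34 and 0.58 with its probes. Glycosyltransferases that build mucin chains and Lewis antigens were also detected in Capan-1 only, among them GCNT3 (at least 407-fold), FUT3 (at least 309-fold), GALNT5 (at least 187-fold) and GALNT3 (at least 80.5-fold).

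The CEACAM family of adhesion molecules, to which the tumor marker carcinoembryonic antigen belongs, split by member. CEACAM6 was at -8.21 and -7.50 in MIA PaCa-2 and at 4.64 and 4.77 in Capan-1. CEACAM5, the gene of carcinoembryonic antigen, was at -6.50 and -6.97 in MIA PaCa-2, not above background, and at 1.33 and 1.43 in Capan-1, at least 166-fold higher. CEACAM7 (-6.57), CEACAM1 (-2.93) and CEACAM4 (-1.58) were higher in Capan-1, whereas CEACAM19 (1.52) and CEACAM20 (1.74) were higher in MIA PaCa-2. All 5 members above background on all 4 arrays therefore passed the 2-fold test, with a median of -1.58 (-0.56 with normexp).

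Transcription factors of foregut and pancreas that passed the 2-fold test were more often higher in Capan-1 than in MIA PaCa-2. Of 25 members above background on all 4 arrays, 10 were higher in Capan-1 and 2 in MIA PaCa-2 by the 2-fold test, with a median of -0.58 (-0.35 with normexp). In neither line were 12 of 43 above background, including PDX1, HNF4A and PTF1A, against 4118 of all 20356 named genes. GATA6, a factor of endodermal and pancreatic epithelium, was at -7.44 and -7.38 in MIA PaCa-2, not above background, and at 1.16 and 1.15 in Capan-1, at least 143-fold higher. The pioneer factors FOXA1 (-4.96), FOXA2 (-4.40) and FOXA3 (-3.89), CDX2 (-2.15) and the vitamin D receptor gene VDR (-3.45) were higher in Capan-1. SOX2 was detected in Capan-1 only (at least 60.1-fold). PAX6 (1.77) was higher in MIA PaCa-2, NKX6-2 was detected only there (at least 18.4-fold), and SOX9, a ductal factor, was at -1.12 and -0.21 in MIA PaCa-2 and -0.80 and -0.80 in Capan-1.

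HOX genes, which pattern the body axis in 4 clusters, differed member by member. Of 20 members above background on all 4 arrays, 7 were higher in Capan-1 and 2 in MIA PaCa-2 by the 2-fold test. Their median was 0.04, but -0.02 with normexp and -0.01 without MIA PaCa-2 replicate 1. It was 0.11 without Capan-1 replicate 1 and 0.01 without Capan-1 replicate 2. The sign of the median is thus not set. More members were called higher in Capan-1, HOXA9 and HOXA10 only through their dimmer probe. Within the HOXB cluster, HOXB8 was at 3.27 and 2.41 in MIA PaCa-2 and at -4.48 and -4.91 in Capan-1, a difference of 7.53 ± 0.34 (SE). Its neighbor HOXB9 (1.84) was also higher in MIA PaCa-2, while HOXB7 (-2.05) and HOXB3 (-1.43) were higher in Capan-1. HOXB2 (-0.24) and HOXB4 (0.18) did not pass the test. In the HOXA cluster, HOXA11 (-3.83) and HOXA5 (-1.92) were higher in Capan-1, and HOXA6 was at -5.63 and -5.78 in MIA PaCa-2 and at -0.12 and -0.33 in Capan-1. The probes of HOXA9 (0.78 and -4.92) and of HOXA10 (0.12 and -7.33) disagreed, and both genes count as higher in Capan-1 through their dimmer probe. HOXC9 (at least 13.2-fold), HOXC13 (at least 6.20-fold) and HOXC10 (at least 1.92-fold) were detected in Capan-1 only. Of the HOXD cluster, HOXD9 alone passed the background call on both arrays of a line, MIA PaCa-2 (-3.63 and -3.35).

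**Figure D2:**
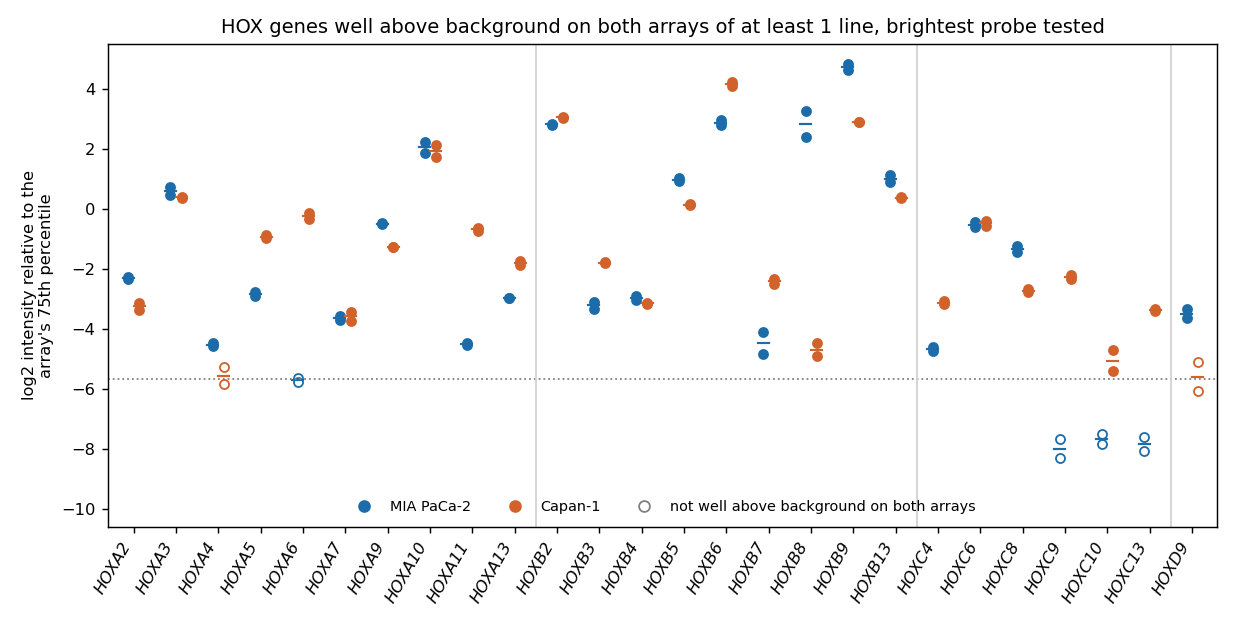
Levels (y axis, log2 intensity relative to the 75th percentile of the array) of 26 HOX genes (x axis, in cluster order, clusters separated by grey lines) on the 2 MIA PaCa-2 (blue) and 2 Capan-1 (orange) parental arrays, by the brightest probe tested. Points are arrays, dashes are means, open points mark a gene that was not well above background on both arrays of a line, and the dotted line is the highest background limit. HOXB8 is higher in MIA PaCa-2 by 7.53, whereas HOXB7, HOXA6, HOXA11 and HOXC9 are higher in Capan-1.

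TGF-beta and BMP signaling differed in ligands, receptors and mediators. SMAD4, the common mediator of the pathway, was at -1.44 and -0.66 in MIA PaCa-2 and at -7.23 and -7.13 in Capan-1, where neither array had it above background, so that it was at least 29.0-fold higher in MIA PaCa-2. Its probe lies at positions 46859058 to 46859117 of chromosome 18 in hg18. SMAD9 was also detected in MIA PaCa-2 only (at least 39.9-fold), and SMAD2 (2.13) was higher there, whereas SMAD3 (-1.95) and the inhibitory SMAD6 (-1.86) and SMAD7 (-1.57) were higher in Capan-1. Among receptors, TGFBR2 was at -4.14 and -3.60 in MIA PaCa-2 and at 3.51 and 3.60 in Capan-1, a difference of -7.43, and BMPR2 (-0.13) did not pass the test. Among ligands, BMP4 (at least 984-fold) and TGFB2 (at least 37.9-fold) were detected in Capan-1 only and GDF15 (-4.77) was higher there. BMP7 was at 2.81 and 2.91 in MIA PaCa-2 and at -5.33 and -4.69 in Capan-1. Of the antagonists, FST was detected in Capan-1 only (at least 179-fold) and NOG (4.21) was higher in MIA PaCa-2. The BMP target genes ID1 (2.10) and ID3 (6.34) were higher in MIA PaCa-2, with ID3 at 4.72 and 4.41 against -1.85 and -1.70. Over 29 members above background on all 4 arrays, 5 were higher in MIA PaCa-2 against 8 in Capan-1, with a median of -0.38 (-0.16 with normexp).

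Output genes of the MAPK pathway differed in opposite directions. Of 26 such genes above background on all 4 arrays, 5 were higher in each line, with a median of 0.27. All 3 Sprouty genes called, SPRY1 (2.58), SPRY2 (3.65) and SPRY4 (2.94), were higher in MIA PaCa-2, as was the ephrin receptor gene EPHA4 (5.41). The phosphatase genes DUSP4 (-3.37), DUSP5 (-4.44) and DUSP6 (-4.26), which act on MAP kinases, were higher in Capan-1. MYC (0.05) and FOSL1 (-0.40) did not pass the test. In the EGFR family, 5 of 13 such members were higher in Capan-1 and 1 in MIA PaCa-2, with a median of -0.87 (-0.33 with normexp). The ligand gene HBEGF (-3.05) and the receptor antagonist gene LRIG1 (-5.44) were higher in Capan-1, the feedback inhibitor gene ERRFI1 (1.92) was higher in MIA PaCa-2, and EGFR was at -0.71 and -0.76 against -0.69 and -0.63, with differences of 0.34 and 0.57 for its other probes. The probes of TGFA gave 0.39 and -4.57.

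Tumor suppressor and cell cycle genes were next compared. CDKN2A had a level of -1.06 and -1.17 in MIA PaCa-2 and of -2.46 and -2.44 in Capan-1. The difference was 1.34, and it ran from 0.84 to 1.41 over 16 alternative ways of processing. Whether the probe reads CDKN2A alone was not tested. MTAP, the neighbor of CDKN2A, was above background in neither line, as were 9 of 14 genes of the 9p21 list, including CDKN2B. Of all 20356 named genes, 4118 were in neither line. RB1 (-0.46) and E2F1 (-0.37) did not pass the 2-fold test. CDK6 (-2.37) and CDKN1A, which encodes the inhibitor p21 (-2.89), were higher in Capan-1, while CDKN1C (1.65) and SESN1 (2.50) were higher in MIA PaCa-2. Of 28 members of the list of cell cycle regulators above background on all 4 arrays, 5 were higher in MIA PaCa-2 against 3 in Capan-1, with a median of 0.55.

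Chemokines and cytokines were mostly higher in Capan-1. Of 27 members above background on all 4 arrays, 16 were higher in Capan-1 and 3 in MIA PaCa-2 by the 2-fold test, with a median of -2.27, and 10 members were detected in Capan-1 only. All 6 neutrophil-attracting CXC chemokine genes on the list were among the 16, CXCL1 (-3.81), CXCL2 (-3.81), CXCL3 (-6.05), CXCL5 (-4.70), CXCL6 (-5.72) and CXCL8 (-3.95), although the probe of CXCL2 also matches CXCL3. CCL2, the monocyte attractant, was at -5.66 and -5.59 in MIA PaCa-2 and at 6.23 and 6.28 in Capan-1. CCL20 was detected in Capan-1 only (at least 630-fold), as were IL18 (at least 131-fold), IL1A (at least 26.7-fold) and CSF2 (at least 213-fold). The interleukin genes IL6 (-6.35), IL32 (-7.60) and IL1RN, which encodes the interleukin-1 receptor antagonist (-8.89), were higher in Capan-1. CSF3 (2.05), TNFSF10, the gene of TRAIL, and CXCL12 were higher in MIA PaCa-2. The call of TNFSF10 rests on its dimmer probe (1.59, against 1.26), and that of CXCL12 on 1 of its probes (2.51, against -0.95 and 0.07).

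Antigen presentation genes followed the same direction. Of 10 MHC class II genes above background on all 4 arrays, 8 were higher in Capan-1 and 1 in MIA PaCa-2 (median -1.67). HLA-DRA was at -7.97 and -7.33 in MIA PaCa-2, not above background, and at 0.48 and 0.55 in Capan-1, at least 91.6-fold higher. The invariant chain gene CD74 was also detected in Capan-1 only (at least 57.3-fold), and the class II transactivator gene CIITA was at -5.91 and -5.79, not above background with its brightest probe, against -1.30 and -1.29 (at least 23.5-fold). HLA-DOA (1.42) was higher in MIA PaCa-2, with 0.09 for its other probe. For class I, 9 of 22 members were higher in Capan-1 and 1 in MIA PaCa-2 (median -0.54), including B2M (-1.67), HLA-B (-1.71) and the immunoproteasome genes PSMB8 (-2.19) and PSMB9 (-1.49). The peptidase gene ERAP2 was the exception, at -0.03 and -0.30 in MIA PaCa-2 and at -4.32 and -4.30 in Capan-1. HLA genes vary between people and share sequence, and the probe of HLA-B also matches HLA-C, so unequal hybridization of alleles and unequal expression cannot be told apart here.

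Interferon-stimulated genes did not move as a block. Of 46 members above background on all 4 arrays, 8 were higher in MIA PaCa-2 against 12 in Capan-1 by the 2-fold test, with a median of -0.37 (-0.16 with normexp). IFIT1 was at 4.36 and 4.38 in MIA PaCa-2 and at 1.2 and 1.23 in Capan-1, and IFITM1 (3.55), IFITM2 (2.26), IFITM3 (2.09) and ISG15 (1.34) were higher in MIA PaCa-2 too. IRF7, a regulator of interferon genes, was at -4.97 and -4.55 in MIA PaCa-2 and at 1.80 and 1.91 in Capan-1. IFI27 (-5.0), MX1 (-3.89), PLSCR1 (-3.03) and IFI44 (-2.42) were higher in Capan-1, and STAT2 (0.62) did not pass the 2-fold test.

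**Figure D3:**
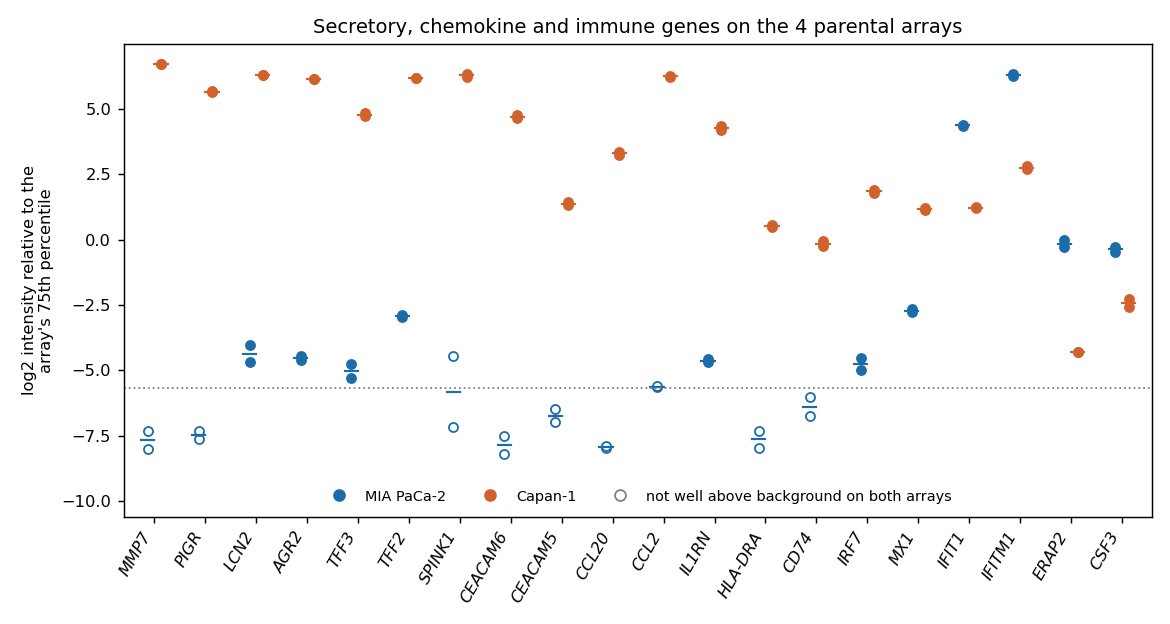
Levels (y axis, log2 intensity relative to the 75th percentile of the array) of 20 secretory, chemokine, antigen presentation and interferon-stimulated genes (x axis) on the 2 MIA PaCa-2 (blue) and 2 Capan-1 (orange) parental arrays. Points are arrays, dashes are means, open points mark a gene that was not well above background on both arrays of a line, and the dotted line is the highest background limit. Capan-1 is higher from MMP7 to MX1, and MIA PaCa-2 is higher for IFIT1, IFITM1, ERAP2 and CSF3.

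Matrix genes differed in both directions. Of 17 collagen genes above background on all 4 arrays, 6 were higher in MIA PaCa-2 against 3 in Capan-1 by the 2-fold test, with a median of 0.15 (0.35 without MIA PaCa-2 replicate 1). COL5A2 was at 4.59 and 4.79 in MIA PaCa-2 and at -4.04 and -3.75 in Capan-1. COL1A2 was at 3.79 and 3.87 in MIA PaCa-2 and at -6.23 and -5.53 in Capan-1, whereas COL1A1, its partner in type I collagen, was at -4.82 and -5.60 against -4.28 and -3.91. COL13A1 (at least 33.0-fold) and COL6A3 (at least 10.8-fold) were detected in MIA PaCa-2 only and COL12A1 (at least 22.4-fold) in Capan-1 only. Among 21 integrin and laminin genes, 8 were higher in Capan-1 and 2 in MIA PaCa-2, with a median of -0.77. Of the laminin chain genes of epithelial basement membranes, LAMB3 was higher in Capan-1 (-8.15). LAMA3 was at least 441-fold higher in Capan-1 with its brightest probe, which was not above background in MIA PaCa-2, and differed by -1.11 with the other. COL17A1, which encodes a transmembrane collagen of hemidesmosomes, ran the other way and was detected in MIA PaCa-2 only (at least 69.7-fold).

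Proteases were among the most divergent genes in both directions. Of 27 members above background on all 4 arrays, 12 were higher in MIA PaCa-2 against 7 in Capan-1 by the 2-fold test, and their median was -0.35 (-0.14 with normexp, -0.22 and -0.23 without MIA PaCa-2 replicates 1 and 2). MMP1 (3.29), MMP11 (2.69), the inhibitors TIMP1 (2.82) and TIMP2 (2.66) and the kallikreins KLK5 (4.44), KLK6 (2.41), KLK7 (2.55) and KLK8 (1.32) were higher in MIA PaCa-2. The serpin genes SERPINF1 (7.93) and SERPINA3 (5.42) were higher there as well. MMP7 was at -8.03 and -7.32 in MIA PaCa-2 and at 6.74 and 6.71 in Capan-1. MMP9 (-2.99), MMP14 (-2.71), PLAT, the gene of tissue plasminogen activator (-6.06), and TMPRSS4 (-7.11) were higher in Capan-1. TMPRSS3 (at least 130-fold) and KLK11 (at least 78.2-fold) were detected only there.

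Of the glycolysis and hypoxia genes that passed the 2-fold test, most were higher in MIA PaCa-2. Of 34 members above background on all 4 arrays, 10 were higher in MIA PaCa-2 against 2 in Capan-1 by the 2-fold test, with a median of 0.99, against 12.9% and 10.7% of all such genes. GAPDH, often used as a reference gene, was at 8.19 and 8.34 in MIA PaCa-2 and at 6.56 and 6.60 in Capan-1, a 3.22-fold difference. The enzymes PGK1 (2.18), TPI1 (1.62), PGAM1 (1.55) and ENO2 (3.0) and the lactate transporter SLC16A3 (2.44) were higher in MIA PaCa-2, and the glucose transporter SLC2A3 was detected only there (at least 36.0-fold), while EGLN3 was detected in Capan-1 only (at least 11.3-fold). SLC2A1 (-1.29), HK2 (0.07) and PKM (0.02) did not pass the 2-fold test. EPAS1, which encodes HIF-2 alpha (-4.47), and CA12 (-2.95) were higher in Capan-1. LDHB was above background in neither line. RPL30, the other reference gene of the study, was at 6.42 and 6.48 in MIA PaCa-2 and at 6.77 and 6.72 in Capan-1 (-0.29, or -0.62 with quantile normalization).

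Detoxification genes were higher in Capan-1 more often than the background share. Of 40 members above background on all 4 arrays, 14 were higher in Capan-1 and 5 in MIA PaCa-2, with a median of -0.33. GPX2 was at -3.31 and -3.36 in MIA PaCa-2 and at 4.73 and 4.73 in Capan-1. AKR1B1 (-4.22), ALDH1A3 (-3.13), CYP2S1 (-4.77) and the transporter gene ABCC3 (-4.67) were higher in Capan-1, and ALDH1A1 (3.01), GSTA4 (4.76), NQO1 (1.53) and ABCC2 (5.87) in MIA PaCa-2. Of 14 genes of gemcitabine transport and metabolism, 1 was higher in each line, namely SAMHD1 (1.51) in MIA PaCa-2 and CDA, which deaminates gemcitabine (-1.76), in Capan-1, with a median of 0.30. The activating kinase gene DCK (0.06) and the transporter gene SLC29A1 (1.18) did not pass the 2-fold test, and the transporter gene SLC28A3 was detected in Capan-1 only (at least 10.3-fold). SLC28A2 was detected in MIA PaCa-2 only (at least 2.49-fold) without passing the 2-fold test, and SLC28A1, above background on 1 Capan-1 array, was higher in MIA PaCa-2 (2.64). Among 33 genes of cholesterol and fatty acid synthesis, 4 were higher in MIA PaCa-2 against 6 in Capan-1, with a median of -0.20 (-0.10 without Capan-1 replicate 1).

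Proliferation genes differed less. Among 46 G2/M phase genes, all above background on every array, 7 (15.2%) were higher in MIA PaCa-2 by the 2-fold test and 0 in Capan-1. The shares of all such genes were 12.9% and 10.7%, so the share higher in MIA PaCa-2 was near the background. The median was 0.58. At the plain limma threshold 31 were higher in MIA PaCa-2 against 0 in Capan-1, against 39.7% and 32.9% of all genes. The 7 include CDC25C (2.08), NEK2 (2.08), KIF20A (2.04), NUF2 (1.97), CENPF (1.95) and CCNB1 (1.61), which act in mitotic entry and chromosome segregation. Among 44 S phase genes, 5 were higher in Capan-1 and 1 in MIA PaCa-2 (median -0.24, or -0.11 with normexp), CDC6 (-1.80) among the former. In contrast, 77 cytosolic ribosomal protein genes had 3 higher in MIA PaCa-2 against 1 in Capan-1, a share of 5.19% against 23.6% of all genes, with a median of 0.24 that fell to 0.02 with quantile normalization. Of 32 proteasome genes, 2 passed the test, both higher in MIA PaCa-2, and the median was -0.08 (-0.21 with quantile normalization, -0.05 with no scaling, -0.02 with spike-in centring, -0.03 without Capan-1 replicate 1 and -0.04 without MIA PaCa-2 replicate 1).

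**Figure D4:**
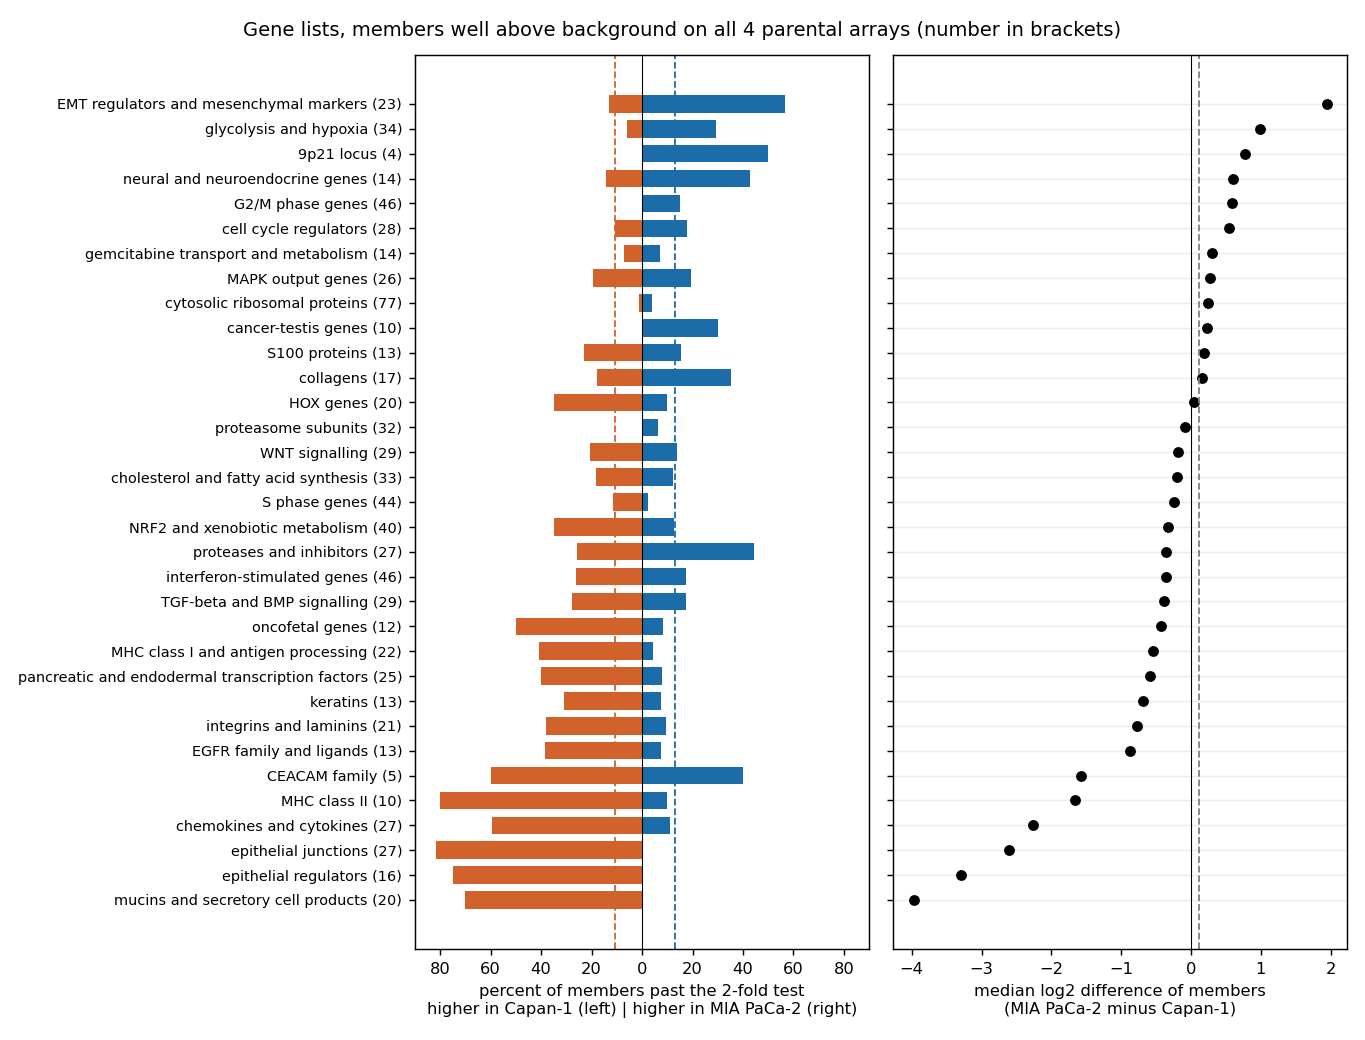
For each of 33 gene lists (y axis, number of members well above background on all 4 arrays in brackets), the left panel gives the percent of these members past the 2-fold test as higher in Capan-1 (orange, to the left) and in MIA PaCa-2 (blue, to the right), with dashed lines at the shares of all such genes, 10.7% and 12.9%. The right panel gives the median log2 difference of the members, with a dashed line at the median of all such genes, 0.11. Secretory, epithelial, chemokine and MHC class II lists lie at the Capan-1 end, and the mesenchymal list at the MIA PaCa-2 end.

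Oncofetal genes also set the lines apart. H19, an imprinted noncoding RNA, was at 1.42 and 1.14 in MIA PaCa-2 and not above background in Capan-1 (at least 146-fold). Its imprinted neighbor IGF2 was at -0.10 and -0.29 in MIA PaCa-2 and at -5.17 and -6.01 in Capan-1, by a probe that also matches INS-IGF2. IGF2BP3 (2.11) was higher in MIA PaCa-2, whereas IGF2BP1 (-5.27), SALL4 (-4.67) and CRABP2 (-6.25) were higher in Capan-1, as 6 of 12 members above background on all 4 arrays were, against 1 in MIA PaCa-2. Of 14 neural and neuroendocrine genes above background on all 4 arrays, 6 were higher in MIA PaCa-2 by the 2-fold test and 2 in Capan-1 (median 0.61). TUBB3 (3.78), MAP2 (3.88) and RET (3.13) were higher in MIA PaCa-2, and SCG2, a secretogranin gene, was detected only there (at least 211-fold), 1 of 4 such members. In contrast, 3 members were detected in Capan-1 only, SCG5 (at least 44.5-fold) and the somatostatin receptor genes SSTR1 (at least 9.63-fold) and SSTR2 (at least 6.09-fold). FGF2, a fibroblast growth factor gene, was detected in MIA PaCa-2 only as well (at least 11.2-fold).

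WNT pathway members were not shifted as a list. Of 29 members above background on all 4 arrays, 4 were higher in MIA PaCa-2 against 6 in Capan-1, and the median was -0.19 (-0.08 with normexp, -0.33 and -0.30 without MIA PaCa-2 replicates 1 and 2, and -0.32 without Capan-1 replicate 2). AXIN2, a feedback inhibitor of the pathway, was at -4.93 and -4.88 in MIA PaCa-2 and at -1.38 and -1.28 in Capan-1, and RNF43, a ubiquitin ligase that removes WNT receptors, was detected in Capan-1 only (at least 241-fold). LEF1 was detected in Capan-1 only (at least 38.6-fold), and its relative TCF7 (3.60) was higher in MIA PaCa-2. The receptors FZD8 (4.31) and FZD4 (3.14) were higher in MIA PaCa-2 and FZD1 (-2.30) and FZD5 (-1.90) in Capan-1.

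Differences were also uneven along the genome. The median difference over genes above background on all 4 arrays was 0.90 on chromosome X, and all 12 bins of 10 Mb on X had medians above 0 (0.52 to 1.12). Over all genes tested, which include genes detected in 1 line, 31.0% on X were higher in MIA PaCa-2 by the 2-fold test, against 14.7% across the genome. Chromosome 15 had the lowest median, -0.53, and all 8 of its bins were below 0 (-0.97 to -0.11). Of its genes tested 25.3% were higher in Capan-1, against 14.6% across the genome. Over 255 bins with at least 20 genes tested, medians ran from -1.03 on chromosome 3 (100 to 110 Mb, hg18) to 1.44 on chromosome 18 (40 to 50 Mb), with an SD of 0.44. The bin on chromosome 18 holds SMAD4, and 18 of its 34 genes tested were higher in MIA PaCa-2 against 2 in Capan-1. The bins of this chromosome below 20 Mb had medians of -0.03 and -0.12, and those from 50 to 60 Mb and from 70 to 80 Mb had 0.74 and 0.45. The next highest bins of the genome were chromosome 5 from 90 to 100 Mb (1.41) and chromosome 20 from 10 to 20 Mb (1.30). Bins were compared after their values were seen, copy number was not measured on these arrays, and no test is attached to them.

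**Figure D5:**
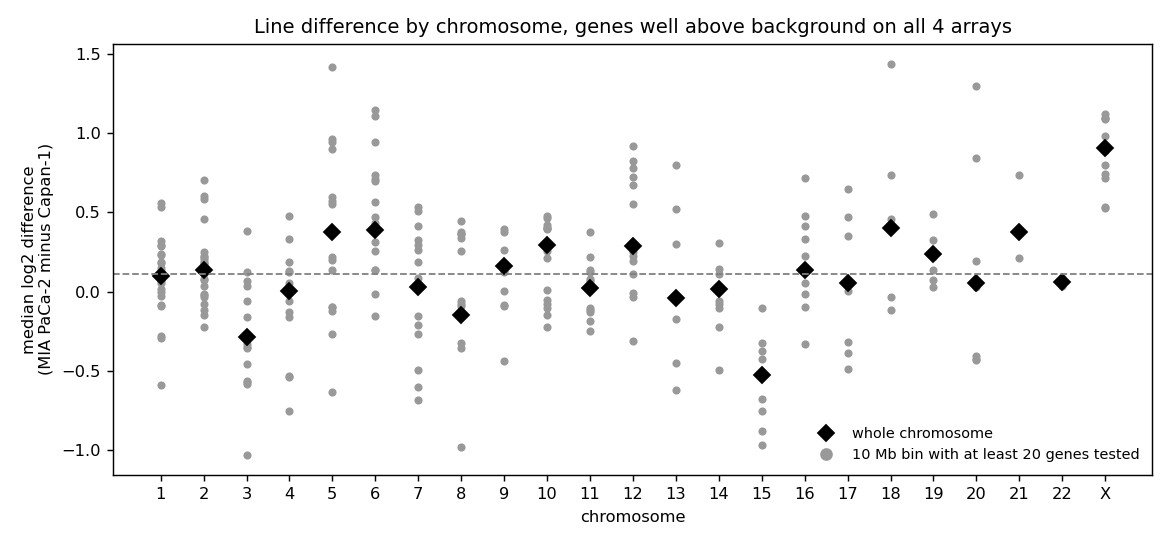
Median log2 difference, MIA PaCa-2 minus Capan-1 (y axis), of genes well above background on all 4 parental arrays for each chromosome (x axis, black diamonds) and for bins of 10 Mb with at least 20 genes tested (grey points). The dashed line is the median of all such genes, 0.11. Chromosome X lies highest at 0.90 and chromosome 15 lowest at -0.53.

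The difference between the lines was measured again on the 4 arrays of cells given 10 nM HOXB7 siRNA for 48 h, which are other arrays on the same 2 slides. Of 6183 probes past the 2-fold test and tested on both sets, 6174 had the same direction on the siRNA arrays and 6016 also passed the limma threshold there, against 91.3% of all 24654 probes tested on both that had the same direction. All 211 named genes that could be compared kept their direction. VIM differed by 9.0 on the parental and 9.26 on the siRNA arrays, and HOXB8 by 7.53 and 8.61. HOXB7 stood at -7.77 and -7.78 on the siRNA arrays of MIA PaCa-2, below the weakest signal called well above background there (-5.75 and -6.16), so its difference is not compared. A test of the difference between both sets, an interaction in limma, called 1 of 25552 probes and 0 of the 211 named genes, whose lowest adjusted p was 0.0833, and 2843 probes had an unadjusted p under 0.05. This repeat shares slides and media with the parental arrays and so leaves line, slide and medium joined.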

How the data were processed

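Total RNA from parental cells of each line was labeled with Cy3 and hybridized to one-color Agilent arrays, 2 per line. The authors scanned the arrays and, per the labels, extracted them with Agilent Feature Extraction 9.5.3, and they deposited background-corrected spot intensity values together with background calls and coordinates in hg18. They also deposited a table of log2 intensity values, which equals the log2 of these spot values.

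After spots with an outlier flag were left out, the log2 intensity was averaged over the spots of each probe, and the 75th percentile over all probes of the array was subtracted. Probes (60 bases) were named through RefSeq accessions where possible, which gave 27012 of 34127 probes a gene name, and 797 probes match several genes. A probe entered the test where 1 line or both had it well above background on each array. Testing was done with limma 3.58.1 in R 4.3.3 (lmFit, eBayes, and treat with a minimum log2 difference of 1 for the 2-fold test), two-sided and with Benjamini-Hochberg adjustment at 0.05. Median spot intensity was 39.5 and 49.5 on the MIA PaCa-2 arrays and 45.0 and 54.0 on the Capan-1 arrays, and the number of arrays limits the precision. With 2 arrays against 2, an exact permutation test could not go below p = 0.333, so none was used.

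A gene counted as higher in a line where some probe of it passed that way and no probe passed the opposite way. Named are HOXB7, the 8 largest differences each way among genes above background on all 4 arrays, the 6 largest bounds each way among genes detected in 1 line, up to 3 members each way of 33 gene lists, and fixed genes of this tumor. Other list members in the text were chosen after their values were seen. A gene is given by its brightest probe, and other probes where they disagree in sign or call. The genes and lists were chosen with earlier results of these data known. Genes of the Y chromosome and some other genes that the rule selects are not reported here.

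In simulated data with 12482 of 24964 probes changed by a log2 of 2, the limma test recovered 96.9% and the 2-fold test 91.4%, and with 200 probes so changed they recovered 58.5% and 0%. The 2-fold test recovered 0% of changes of a log2 of 1. Python 3.11.15 (pandas 2.3.3, numpy 2.4.6, matplotlib 3.10.9) was used for tables and figures.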

Additional observations from a re-analysis of the deposited data

How the results depend on the processing

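The 2-fold test called 2395 genes higher in MIA PaCa-2 and 2378 higher in Capan-1, against 6444 and 5342 with the plain limma test. Centring the arrays on spike-in probes gave a count of genes higher in MIA PaCa-2 of 4118 and a count of genes higher in Capan-1 of 3294, and an interval holding 99% of the differences between replicate arrays, taken from the study's methods without their further criteria on probes per gene, gave 3878 and 3380. Leaving out each array in turn gave 5191 to 6214 and 4235 to 5457 genes, with the lone array assumed to vary like the other line, and for HOXB7, MIA PaCa-2 minus Capan-1, differences between -2.41 and -1.68. Over 16 alternatives the adjusted p of HOXB7 from limma ran from 1.93e-09 to 0.0353. A fit with the replicate number as a block gave 5971 and 5054 genes and left HOXB7 at -2.05. The numbers were not treated as pairing the arrays, since deviations of same-numbered arrays correlated at -0.05 over 2 pairs. The median of all probes lay between 0.05 and 0.17 under the scalings tried. No called difference changed sign, and calls of named genes were lost 87 times over all alternatives, 31 of them under the 2-fold test, and gained 1 time, for KRT18 with quantile normalization. Genes dim in 1 line depend most on the background correction.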

Other observations

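Of 325 genes with at least 2 probes past the 2-fold test and above background on all 4 arrays, 3 had probes in opposite directions. A gene with 1 probe past the test and another short of it is not in this count. By the plain limma test, 242 of 16238 genes had calls in both directions, and 12326 of the genes tested had only 1 probe. MT1H, a metallothionein gene, gave 2.69 and -3.07, TCAIM gave 2.24 and -1.77, and MMP19, a matrix metalloproteinase gene, gave 1.83 and -1.49. The probes of TCAIM lie at positions 44425684 to 44425743 and 44375423 to 44375482 of chromosome 3 in hg18. Whether they read different transcripts was not tested.

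Of 10 cancer-testis genes above background on all 4 arrays, 3 were higher in MIA PaCa-2, namely PRAME (3.04), MAGED1 (1.70) and TKTL1 (2.37), and 0 in Capan-1, with a median of 0.23 (0.12 with normexp, 0.35 without MIA PaCa-2 replicate 2 and 0.15 without Capan-1 replicate 2). DDX43, an RNA helicase gene of the same list, was detected in Capan-1 only (at least 169-fold). Of 13 S100 genes, 2 were higher in MIA PaCa-2 against 3 in Capan-1, with a median of 0.19 (0.02 with normexp and 0.08 with outlier spots kept, 0.05 without Capan-1 replicate 1 and 0.30 without Capan-1 replicate 2). S100P was at -0.46 and -0.42 in MIA PaCa-2 and at 6.26 and 6.18 in Capan-1, and S100A9 (at least 155-fold) and S100A14 (at least 272-fold) were detected in Capan-1 only, while S100Z was detected in MIA PaCa-2 only (at least 17.7-fold). S100A6 was at 7.45 and 7.85 against 7.66 and 7.62.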
